A study of Macaca mulatta with 22 samples.

Results

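Ion channel genes that carried an m6A peak in the prefrontal cortex of infant rhesus macaques are described here. A gene was included if its symbol begins with CACN, KCN, HCN, CLCN, TRPM, TRPC, TRPV or CHRN, or with SCN and a digit. That rule took 42 genes (43 gene identifiers, since KCNK9 has 2 that overlap) of the 3671 genes with a peak, and 113 of 10069 peaks. It is wider than voltage-gated channels. It includes auxiliary proteins that bind the channels, a nicotinic acetylcholine receptor subunit, and CLC proteins, several of which exchange chloride for protons.

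The peaks came from m6A-seq, in which fragmented total RNA was captured with an antibody against N6-methyladenosine. The control group had 6 animals, of which A and B were male and C, C1, C2 and C3 female. The sevoflurane group had 5 animals, of which D and S1 were male and F, S2 and S3 female. All were at postnatal day 35. The exposed animals inhaled sevoflurane, a general anaesthetic, at about 2.5 to 3.0% for 4 h at about postnatal days 7, 21 and 35. The labels attach this exposure protocol to every sample, controls included, and mark controls only by their group, so what the controls received is not stated. The labels name no genotype or strain beyond the species. The comparison asks whether channel transcripts carried m6A peaks in more, fewer or different animals after exposure.

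Voltage-gated sodium channels carry the rising phase of the action potential, voltage-gated potassium channels repolarise the membrane, and voltage-gated calcium channels couple depolarisation to transmitter release and gene expression. Each is built from a pore-forming subunit and smaller auxiliary subunits that set its trafficking and gating. m6A is an internal mark of mRNA, laid down in the nucleus and read by proteins that affect splicing, export, translation and decay, and in most mRNAs it is densest near the stop codon. Volatile anaesthetics are known to act on GABA type A receptors and also on nicotinic receptors and on leak potassium channels of the K2P family.

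The lists of the control animals held 452 to 1210 peaks (664 ± 282, SD, n = 6), and those of the sevoflurane animals 852 to 1673 (1217 ± 295, SD, n = 5). The depth is unknown because the lists give no read counts. RNA levels were not analysed here, so a peak seen in fewer animals cannot be told apart from less RNA of that gene, and in bulk tissue fewer cells of a type cannot be told apart from less RNA per cell. The neuronal marker NEFM carried a peak in all 11 animals, and RBFOX3 in 4 controls and 3 exposed animals. Of the other 7 neuronal markers SYT1 and NEFL had a peak in any animal. Glial markers were sparse: SLC1A3 of astrocytes in 1 control, MBP of oligodendrocytes in 1 exposed animal, CX3CR1 of microglia in 1 control, and PDGFRA of oligodendrocyte precursors in 0 controls and 3 exposed animals (Fisher's exact p = 0.0606, adjusted p = 0.606). None of the 4 endothelial markers had a peak. Their part in the channel results was not tested.

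Channel genes had a peak somewhat more often than the average gene. The rule takes 185 protein-coding symbols in RefSeq, and 42 of them (22.7%) had a peak in at least 1 animal, against 3394 of 21513 (15.8%) for all protein-coding symbols. Neither set could be limited to genes expressed in the tissue, since RNA levels were not analysed. Channel genes were also long: the median annotated span of channel genes with a peak was 91.7 kb, against 34.6 kb for all genes with a peak. Recurrence across animals was close to that of other genes. Of the 42 channel genes, 22 (52.4%) had a peak in a single animal, against 2053 of 3671 genes (55.9%), and 4 (9.52%) had one in 6 or more animals, against 408 genes (11.1%). No channel gene had a peak in all 11 animals, while 81 genes of the whole table did. The 4 recurrent ones were KCNA6 in 8 animals, CACNA1A in 7, and CACNB1 and CACNA1I in 6 each.

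**Figure D1:**
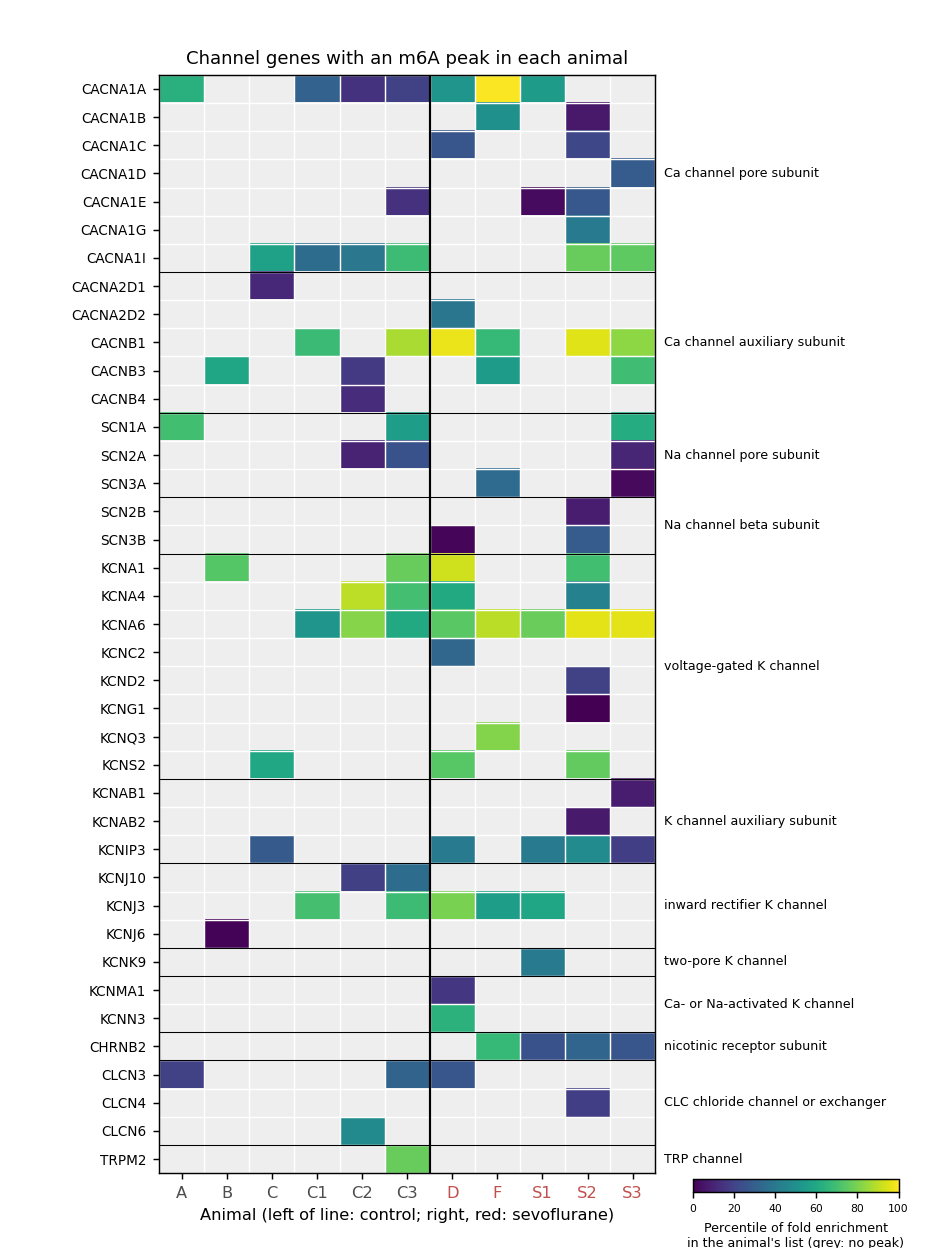
Channel genes (rows, grouped by family) with an m6A peak in each animal (columns; 6 controls left of the line, 5 sevoflurane animals right). Colour gives the percentile of the authors' fold enrichment of the gene's strongest peak within that animal's list, and grey means no peak. Some members are not shown. KCNA6 was filled in all 5 sevoflurane animals and in 3 controls, and CHRNB2 in 4 sevoflurane animals and no control.

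More channel genes had a peak after sevoflurane, and so did more genes of any kind. Controls A and B had 3 channel genes each, C had 4, C1 had 5, C2 had 9 and C3 had 13. Exposed animals had 17 in D, 9 in F, 8 in S1, 18 in S2 and 11 in S3. The group means were 6.17 ± 4.02 (SD, n = 6) and 12.6 ± 4.62 (SD, n = 5), and the groups overlapped, with C3 above F, S1 and S3. Over the same lists, genes with a peak of any kind went from 601 ± 235 to 1043 ± 222 (SD). As a share of each animal's genes with a peak, channel genes made up 0.538% in A, 0.602% in B, 0.889% in C, 1.23% in C1, 1.40% in C2 and 1.24% in C3. The shares were 1.71% in D, 0.876% in F, 1.09% in S1, 1.33% in S2 and 0.990% in S3. The mean shares were 0.983 ± 0.361% and 1.2 ± 0.331% (SD, n = 6 and 5), a difference of 0.217 percentage points, smaller than the spread within either group. No p-value is given for these numbers, because the genes were chosen as a set.

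The order of the groups turned at equal list length, and the order of the shares also differed by sex and naming style. When every list was reduced to its 452 peaks of lowest p-value, the length of the shortest, 17 channel genes were left. Controls then had 3.67 ± 1.21 and exposed animals 3.20 ± 1.92 channel genes (SD), so the order of the means turned. The 2 control males, A and B, held the lowest shares of the series, and male shares were 0.570 ± 0.0458% (SD, n = 2) in controls and 1.40 ± 0.437% (SD, n = 2) after exposure. Female shares were 1.19 ± 0.216% (SD, n = 4) and 1.07 ± 0.239% (SD, n = 3), with the order turned. Whether the sexes differ was not tested. The labels give 5 animals a single letter and 6 a letter with a number. In controls the males A and B both had a single letter, and the numbered animals C1, C2 and C3 were all female. Sex and naming style therefore overlap, and their parts in these shares cannot be told apart. Among single-letter animals the share was 0.616 percentage points higher after exposure, and among numbered animals it differed by -0.151 percentage points. The number of channel genes per animal in the deposited lists, unlike the share, was higher after exposure in every one of these strata. Its log2 ratio was 1.96 in males, 0.80 in females, 1.90 in single-letter animals and 0.48 in numbered animals.

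**Figure D2:**
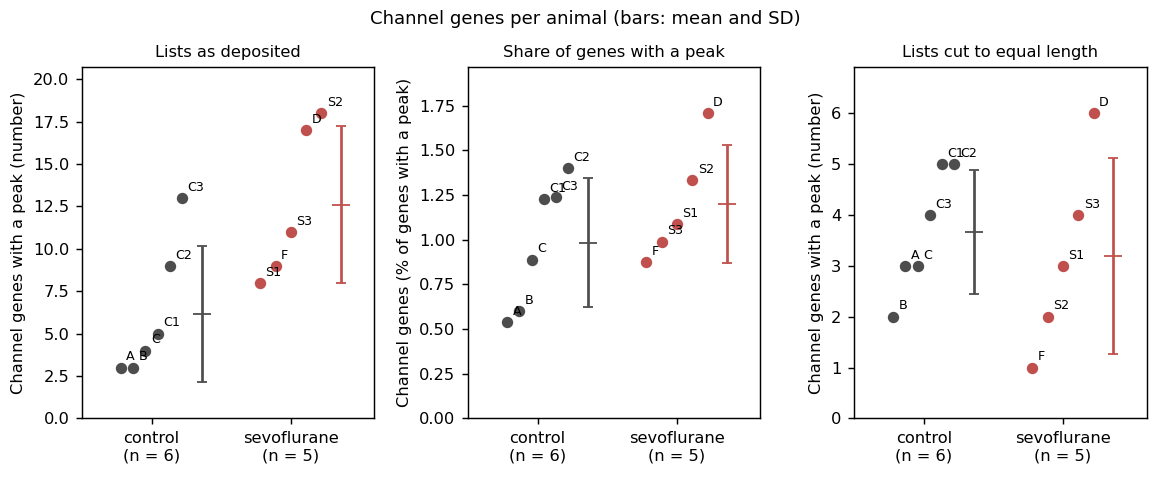
Channel genes per animal in controls (grey, n = 6) and sevoflurane animals (red, n = 5): the number in the lists as deposited, the share of all genes with a peak, and the number when every list keeps its 452 peaks of lowest p-value. Points are animals and bars are means with SD. The means were 6.17 and 12.6 in the deposited lists and 3.67 and 3.20 in lists of equal length.

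Per gene, presence of a peak was compared by Fisher's exact test over the 1486 genes present in 2 to 9 animals, with Benjamini-Hochberg adjustment over all of them. No gene of the table passed an adjusted p of 0.05, and the smallest adjusted p was 0.606. Before adjustment, at p under 0.05, 27 of the 1486 genes (1.82%) were present more often after sevoflurane, and 1 of the 20 channel genes tested was among them, CHRNB2. None of the 1486 genes (0.0%) and none of the 20 channel genes was present more often in controls at that level. A larger share of exposed animals than of controls had the peak in 14 of the 20 channel genes tested (70.0%), against 83.2% of all genes tested, and in 6 the share was larger in controls. The median difference in share was 0.233 for channel genes and 0.233 for all genes tested. Without any limit on the number of animals, 22 of the 42 channel genes (52.4%) had a peak in exposed animals and in no control, against 44.9% of all 3671 genes, and 6 (14.3%) in controls alone, against 22.8%.

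Peaks were also joined across animals into regions, wherever exonic blocks on 1 strand shared at least 1 bp. Of 1265 regions present in 2 to 9 animals, 19 (1.5%) reached a Fisher's exact p under 0.05 before adjustment, all toward sevoflurane, and none of the 17 channel regions was among them. The exposed animals had the larger share in 14 of the 17 channel regions (82.4%), against 84.7% of all regions tested. The channel regions stood near the background of the series, in which lists were longer after exposure.

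The calcium channel pore subunits were the family with the largest fraction of members with a peak, 7 of 10 symbols in RefSeq. Controls had 1.5 ± 1.05 of them per animal and exposed animals 2.6 ± 1.34 (SD, n = 6 and 5). Both groups included animals with 2, so the groups overlapped. CACNA1A and CACNA1I were the recurrent ones, and the other members lay in 1 to 3 animals each.

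CACNA1A encodes the pore of the P/Q-type channel, which drives fast transmitter release. It had 10 peaks in 7 animals, namely controls A, C1, C2 and C3 and exposed D, F and S1 (4 of 6 against 3 of 5, Fisher's exact p = 1, adjusted p = 1). Its main region, chromosome 19 positions 13285415 to 13285863 on the minus strand of rheMac8, sat at 67.9% of the gene span and was present in A, C1, C2, D, F and S1. All positions given here are in rheMac8. In animal F that peak had a fold enrichment of 118 by the authors' measure, at percentile 99.5 of its list, while in C2 it stood at percentile 14.6. A further region at the gene start, from 13498230 to 13498530, was present in D and F only among the 11 animals. CACNA1A thus had a site common to both groups and others seen in 1 or 2 animals. Among single-letter animals it was present in 1 control and 2 exposed animals, and among numbered animals in 3 controls and 1 exposed animal, so its direction turned with the naming style.

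CACNA1I encodes a low-voltage-activated T-type channel. It had a peak in controls C, C1, C2 and C3 and in exposed S2 and S3 (Fisher's exact p = 0.567, adjusted p = 0.901). All 6 peaks lay in exon 9 of 37, on chromosome 10 from 81651499 to 81651739 (plus strand), at 68.5% of the gene span. Their fold enrichments ran from 4.22 in C1 to 13.3 in S2, and their percentiles within the lists from 35.5 to 76.8. All 6 animals were female, and none of the 4 males had the peak. Females made up 4 of the 6 controls and 3 of the 5 exposed animals. Of the channel genes in at least 2 animals, CACNA1B, SCN2A, SCN3A and KCNJ10 were also seen in females only. The part of sex was not tested.

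CACNA1B, the N-type channel of presynaptic terminals, had no peak in any control and was present in F and S2 (Fisher's exact p = 0.182, adjusted p = 0.606). F had 2 peaks in exon 20 of 47, counted from the 5′ end, between 190436 and 190944 on chromosome 15 (minus strand). S2 had a peak spliced across exons near the 3′ end, at 99.0% of the gene span, so the animals shared no region. CACNA1C, an L-type channel that links activity to transcription, was present in D, with peaks at 16.5% and 95.4% of the span, and in S2, at 46.8% (Fisher's exact p = 0.182, adjusted p = 0.606). Again no region was shared, and the 3 fold enrichments, 3.61, 3.67 and 3.19, stood at percentiles 25.8, 26.6 and 21.7 of their lists.

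CACNA1E, the R-type channel, was present in control C3 and in exposed S1 and S2 (Fisher's exact p = 0.545, adjusted p = 0.901). The 3 peaks all touched exon 15 of 42, counted from the 5′ end, on chromosome 1 (minus strand). They did not overlap: C3 covered 185670520 to 185670640, S2 185670670 to 185670790, and S1 began at 185670969. This is the clearest case among the channel genes in which different animals had neighbouring peaks in the same exon. CACNA1D (L-type) was present in S3 alone and CACNA1G (T-type) in S2 alone, the latter with 2 peaks.

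Among calcium channel auxiliary proteins 5 of 16 symbols had a peak, 1 ± 0.632 per control and 1.4 ± 0.894 per exposed animal (SD). CACNB1, a cytoplasmic beta subunit that escorts the pore to the membrane, was present in controls C1 and C3 and in exposed D, F, S2 and S3 (Fisher's exact p = 0.242, adjusted p = 0.635). Its 6 peaks formed 1 region in the last of 14 exons, on chromosome 16 from 44949193 to 44949431 (minus strand). These were strong peaks within their lists, at percentiles 68.0 in C1, 87.3 in C3, 97.2 in D, 66.8 in F and 82.9 in S3, with S2 between C3 and D. CACNB3, another beta subunit, was present in B, C2, F and S3. In B, F and S3 the peak lay in the 3′ UTR by the authors' class, on chromosome 11 from 47110381 to 47110530 (plus strand), and in C2 it lay at the gene start. CACNB4 was present in C2 alone, and the alpha2delta subunits CACNA2D1 and CACNA2D2 in C alone and D alone.

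Of 10 sodium channel pore symbols, 4 had a peak, 0.667 ± 0.816 per control and 1 ± 1.22 per exposed animal (SD). SCN2A, the main channel of excitatory axons early in life, was present in C2, C3 and S3. All 3 shared a spliced region touching exon 18 of 27, on chromosome 12 between 52294284 and 52296423 (plus strand), and the fold enrichments of 2.87, 2.47 and 2.77 were low in their lists. SCN1A, prominent in inhibitory interneurons, was present in A, C3 and S3 with 4 peaks, of which none overlapped another. SCN3A, highest in the developing brain, was present in F and S3 and in no control (Fisher's exact p = 0.182, adjusted p = 0.606), with separate peaks in exons 22 and 11 of 27, counted from the 5′ end. SCN3A and SCN2A lie 57.6 kb apart on chromosome 12. SCN2A was the only sodium pore gene with a region seen in more than 1 animal.

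The sodium channel beta subunits, single-pass proteins that tune gating and adhesion, had a peak in 2 of 4 symbols and in no control. Of all 3671 genes, 44.9% likewise had a peak in exposed animals and in no control. SCN3B was present in D and S2 with the same peak, on chromosome 14 from 116504817 to 116505023 (minus strand), 89 bp from the annotated gene start (Fisher's exact p = 0.182, adjusted p = 0.606). SCN2B was present in S2 alone.

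Voltage-gated potassium channel genes had a peak in 9 of 40 symbols. There were 0 in A, 1 each in B, C and C1, 2 in C2 and 3 in C3, and then 5 in D, 2 each in F and S1, 6 in S2 and 1 in S3. The means were 1.33 ± 1.03 and 3.20 ± 2.17 (SD), and D and S2 alone lay above all controls. KCNA6, a Shaker-type delayed rectifier, was the channel gene found in the most animals: controls C1, C2 and C3 and all 5 exposed animals (Fisher's exact p = 0.182, adjusted p = 0.606). Its 8 peaks formed 1 region on chromosome 11 from 4983892 to 4984311 (plus strand), in the 5′ UTR by the authors' class, starting 925 to 1045 bp from the gene start. The peaks stood at percentiles 52.0 in C1, 81.7 in C2, 60.9 in C3, 74.4 in D, 89.8 in F, 95.9 in S2 and 95.9 in S3, and S1 lay between those of D and C2. With peaks of p-value at most 1e-05 only, KCNA6 was present in 1 control and 5 exposed animals (unadjusted Fisher's exact p = 0.0152). In lists of equal length it was present in 1 control and 3 exposed animals (Fisher's exact p = 0.242). Among females KCNA6 was present in 3 controls and 3 exposed animals. By naming style, among single-letter animals KCNA6 was present in 0 controls and 2 exposed animals, and among numbered animals in 3 and 3. The part of naming style in the result was not tested.

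KCNA1, also Shaker-type and lying 61.7 kb from KCNA6, was present in B, C3, D and S2. All 4 had the same region on chromosome 11 from 5087306 to 5087515 (plus strand), again in the 5′ UTR by the authors' class, 1174 to 1204 bp from the gene start. C3 had a further KCNA1 peak at 71.9% of the gene span, in the 3′ UTR by the authors' class. KCNA4, the fast-inactivating member of the group, was present in C2, C3, D and S2, with 1 region in exon 2 of 2, on chromosome 14 from 35913701 to 35913911 (plus strand). Both were in 2 controls and 2 exposed animals. KCNS2, a silent subunit that modifies other potassium channels, was present in C, D and S2, with 1 region in the 3′ UTR by the authors' class. Seen in 1 exposed animal each were KCNC2, which serves fast spiking, in D, KCND2 of the A-type current and the silent subunit KCNG1 in S2, and KCNQ3 of the M-current in F.

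Potassium channel auxiliary proteins had a peak in 3 of 17 symbols, 0.167 ± 0.408 per control and 1.2 ± 0.837 per exposed animal (SD). KCNIP3 encodes a calcium-binding protein that modulates A-type channels and also acts as a transcriptional repressor. It was present in control C and in exposed D, S1, S2 and S3 (Fisher's exact p = 0.0801, adjusted p = 0.606). All 5 peaks lay in 1 region of the 3′ UTR by the authors' class, on chromosome 13 from 91774029 to 91774299 (plus strand), with fold enrichments of 4.30 in C, 4.87 in D, 5.13 in S1, 5.32 in S2 and 3.03 in S3. C was the only control with the peak and F the only exposed animal without it. Leaving out either one lowered the unadjusted Fisher's exact p to 0.0476, as removing a discordant animal must lower it. Leaving out any other animal raised it to between 0.1905 and 0.2063. With peaks of p-value at most 1e-05 only, KCNIP3 was present in 1 control and 3 exposed animals (Fisher's exact p = 0.242). In lists of equal length it was present in 1 and 2 (Fisher's exact p = 0.545). Among single-letter animals KCNIP3 was present in 1 control and 1 exposed animal, and among numbered animals in 0 and 3. The part of naming style was not tested. The beta subunits KCNAB1 and KCNAB2 were present in S3 alone and S2 alone.

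Inward rectifiers, which hold the resting potential, had a peak in 3 of 15 symbols, 0.833 ± 0.753 per control and 0.6 ± 0.548 per exposed animal (SD). KCNJ3, a G protein-gated channel subunit, was present in C1, C3, D, F and S1. All 5 had a peak at the gene start on chromosome 12, in a region from 41370225 to 41370405 (plus strand), and D and S1 had a second region from 41370464 to 41370614. KCNJ10, the main potassium channel of astrocytes, was present in controls C2 and C3 and in no exposed animal (Fisher's exact p = 0.455, adjusted p = 0.901). Both had a peak on chromosome 1 from 134773617 to 134773767 (minus strand), at 95.7% of the gene span. It was the channel gene with the largest difference toward controls, and 2 animals cannot reach 0.05 here. KCNJ6, another G protein-gated subunit, was present in B alone. Of 15 K2P leak channel symbols KCNK9 alone had a peak, in S1, and of 8 calcium- or sodium-activated potassium channel symbols KCNMA1 and KCNN3 had one, both in D alone.

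CHRNB2 encodes the beta2 subunit of the main high-affinity nicotinic receptor of the brain and was the only one of 16 nicotinic receptor symbols with a peak. It was present in 0 of 6 controls and in F, S1, S2 and S3 of the 5 exposed animals (Fisher's exact p = 0.0152, adjusted p = 0.606), which does not pass the adjustment. The 4 peaks fell in 2 regions on chromosome 1 (plus strand). S1 and S3 shared a spliced peak from 129209094 to 129210005, in the 5′ UTR by the authors' class, with fold enrichments of 3.89 and 3.35. F and S2 shared a peak from 129214962 to 129215111, in the 3′ UTR by the authors' class, with fold enrichments of 11.3 and 3.83. Each region on its own was present in 2 exposed animals and no control (Fisher's exact p = 0.182, adjusted p = 0.610). With peaks of p-value at most 1e-05 only, CHRNB2 was present in 1 exposed animal and no control (Fisher's exact p = 0.455), and in lists of equal length in no animal. Among single-letter animals it was present in 0 controls and 1 exposed animal, and among numbered animals in 0 and 3. By sex, CHRNB2 was present in 0 and 1 of the males and in 0 and 3 of the females. KCNN3, which lies 116.6 kb away on the same chromosome, was present in D, the exposed animal without a CHRNB2 peak.

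CLC genes had a peak in 3 of 8 symbols, with no region shared between animals. CLCN3, an endosomal chloride-proton exchanger, was present in A, C3 and D at 3 separate places, CLCN4 in S2 alone and CLCN6 in C2 alone. Among TRP channel genes TRPM2 was present in C3 alone, by a peak that the annotation column assigns to another gene. None of the 4 HCN pacemaker genes had a peak in the gene where it was called. All of these single-animal genes are descriptions of 1 list each.

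Families differed in how repeatably a peak sat in the same place. Of the 20 channel genes present in at least 2 animals, 11 (55.0%) had a region that all their animals shared and 6 (30%) had none shared, close to the 52.2% and 26.1% of all 1618 genes present in at least 2 animals. The potassium channel genes were on 1 side of this split: 7 of 7 had a region common to all their animals. Of the 8 calcium and sodium channel pore genes, 2 (25.0%), CACNA1I and SCN2A, had such a region, and 5 (62.5%), CACNA1B, CACNA1C, CACNA1E, SCN1A and SCN3A, had none shared. The sides are unlike sets: the potassium genes include the auxiliary KCNIP3, while the calcium and sodium side holds pore genes only. Of the calcium and sodium auxiliary genes in at least 2 animals, CACNB1 and SCN3B also had a region that all their animals shared. CACNB3 did not. The contrast thus depends on which members are taken. This grouping was made after the values were seen and was not tested. The pore genes with a peak are also longer, with a median span over genes of 149.6 kb against 77.0 kb for potassium channel genes.

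**Figure D3:**
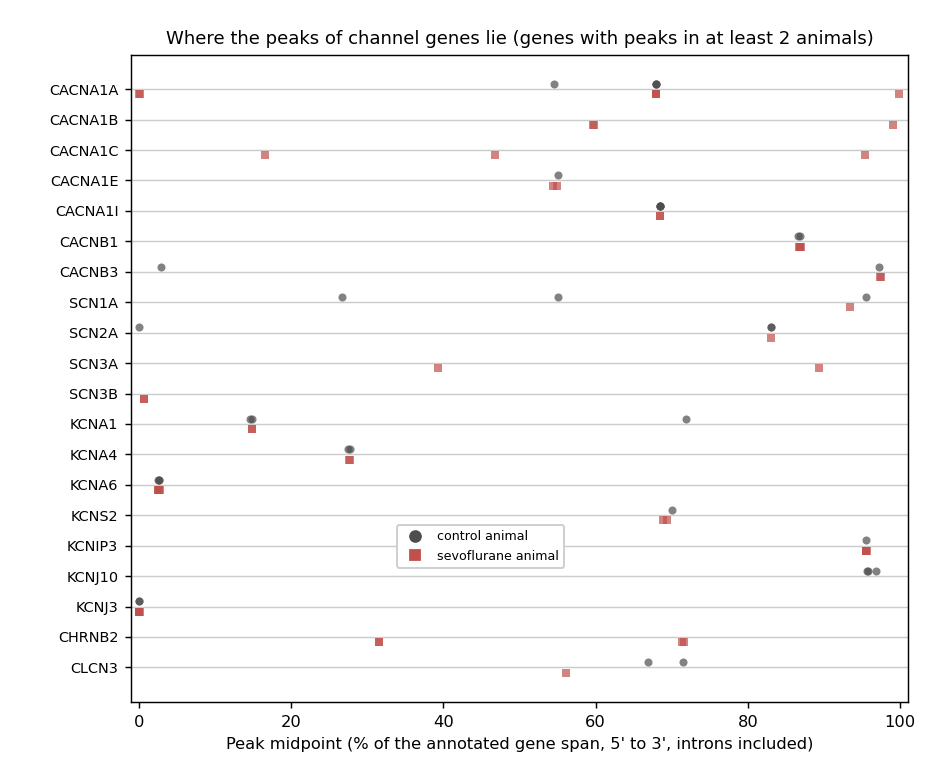
Midpoint of each peak along the annotated gene (percent of the span from the 5′ end, introns included) for the 20 channel genes with peaks in at least 2 animals. Circles are peaks of control animals and squares those of sevoflurane animals. Peaks of KCNA6, KCNA4, KCNIP3, CACNB1 and CACNA1I coincide across animals, as do 4 of the 5 KCNA1 peaks, while those of SCN1A, SCN3A and CACNA1C are spread along the gene.

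Along the gene, channel peaks gathered at both ends as other peaks did. Of 111 channel peaks that could be placed, 33 (29.7%) lay in the first 20% of the gene span and 35 (31.5%) in the last 20%, against 25.0% and 37.3% of 9549 peaks of all genes. The first 20% of the span held 25.0% of channel peaks in controls and 32.4% after sevoflurane, and the last 20% held 30% and 32.4%. Peaks of one gene in several animals are not independent, so these shares are descriptions. Voltage-gated potassium channel genes leaned to the 5′ side: 60.0% of their 25 peaks lay in the first 20% of the span and none in the last 20%, with the 8 KCNA6 peaks and 4 of the KCNA1 peaks among them. For calcium and sodium pore genes 10.3% of 39 peaks lay in the first 20% and 61.5% between 20% and 80%.

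**Figure D4:**
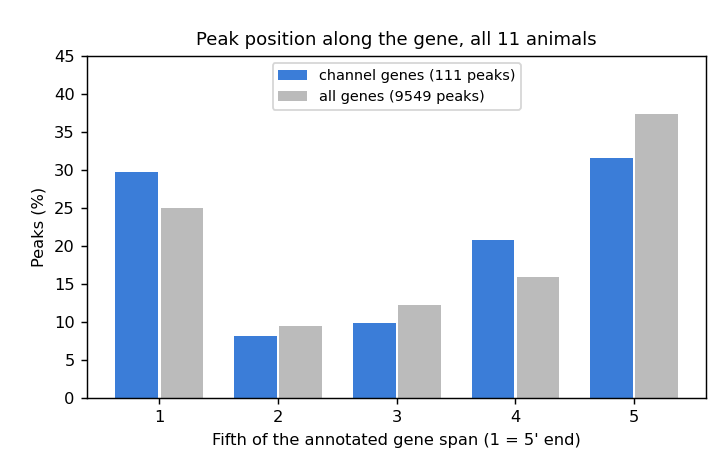
Share of peaks (percent) in each 20% of the annotated gene span, from the 5′ end, for channel genes (blue, 111 peaks) and all genes (grey, 9549 peaks), all 11 animals together. Channel genes had 29.7% in the first 20% and 31.5% in the last 20%, all genes 25.0% and 37.3%.

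Channel peaks were ordinary in strength and rather short. Their median percentile of enrichment within a list was 47.9, against 50.3 for all peaks, and 60.2% had a p-value of at most 1e-05, against 65.5%. The median exonic length was 121 bp, against 150 bp, and 23.0% spanned more than 1 exonic block, against 35.9%. Within the channel genes, peaks of voltage-gated potassium channels had a median percentile of 73.9 and were never split over exons, and those of calcium and sodium pore genes had a median percentile of 35.1 and were split in 35.9%. These too are descriptions, since peaks of one gene in several animals are not independent. KCNA6 alone gave 8 and KCNA1 5 of the 25 voltage-gated potassium channel peaks.

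Proteins that anchor or modulate channels were read from a list of 42 symbols. NALF1 and FAM155A in it are the present and former symbols of 1 gene, counted once with and once without a peak. Of the 42 symbols 18 had a peak, where 3394 of 21513 (15.8%) of all protein-coding symbols did. RNA levels were not analysed, so that background could not be limited to genes expressed in the tissue. Of the 18, 9 were present in 2 to 9 animals. Of these, 0 passed an unadjusted Fisher's exact p under 0.05 in either direction. Over all genes tested, 1.82% passed toward sevoflurane and 0.0% toward controls. The share of animals was larger after sevoflurane in 4 and in controls in 5, where it was larger after sevoflurane in 83.2% of all genes tested. The median difference was -0.10, against 0.233 for all genes tested. RIMS1, an active-zone protein that tethers calcium channels, was present in 0 controls and 3 exposed animals (Fisher's exact p = 0.0606, adjusted p = 0.606). SPTBN4, the spectrin of the axon initial segment, was present in 1 and 3, and ANK3, the ankyrin that clusters sodium channels there, in 3 and 2. UNC80, a subunit of the sodium leak channel complex, was present in 4 and 2. NALF1 was present in 2 controls and 0 exposed animals, and ADAM22 in 3 and 1. No rule was set for which genes of this list to name. Controls had 0 to 6 of these genes and exposed animals 2 to 6.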

How the data were processed

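The submitters' processing notes name HISAT2 2.1.0, StringTie, Trim Galore 0.5.0 and cutadapt, with the rheMac8 build. The peak caller is not given in the sources used here, nor is the background it used. Each deposited list, 1 per immunoprecipitated sample, gives per peak the authors' p-value, their log10 p and log10 false discovery rate (negative scores) and their fold enrichment (a ratio), per the file headers. Depth is unknown, and no counting interval was computed. Input samples have no table and were not used.

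Presence in an animal meant at least 1 peak called in the gene. Symbols came from Ensembl names (36 member identifiers) or the lists (7). Region starts had 1 added, since the lists count from 0. Exon numbers follow the chromosome in the lists, so they were turned on the minus strand, and UTR classes are given for plus-strand genes only. Fisher's exact tests (SciPy 1.17.1, pandas 2.3.3, Python 3.11.15) covered all genes or regions in 2 to 9 animals and were tested on simulated data. Whether animals were littermates is not given in the labels.

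The rule for named genes took 5 given markers, those in at least 6 animals, and up to 10 per direction with a share difference of at least 0.3; the rest are given by family, and values printed for genes outside that rule, such as SCN2A, KCNA1, KCNA4, KCNJ3 and CACNB3, were chosen after they were seen. Some members and markers are not reported here. The members, families, gene lists and rules were chosen with earlier results of these data known. Correlations between same-numbered animals were near 0 (0.0505 for C1 and S1, 0.00158 for C2 and S2, -0.00443 for C3 and S3), so numbers were not taken as pairs. With so few pairs, these values cannot decide whether same-numbered animals belong together. Alternatives were stricter peaks, equal list lengths, the annotation column's gene, 50% reciprocal overlap, strata by sex and naming, the replicate block, and leaving out each animal.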

Additional observations from a re-analysis of the deposited data

How the results depend on the processing

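Before adjustment, at a Fisher's exact p under 0.05, the count of channel genes present more often after sevoflurane was 1 (CHRNB2), 1 with peaks of p-value at most 1e-05 (KCNA6 in place of CHRNB2), 0 in lists of equal length, 1 in females, and 1 to 2 when each animal was left out, with KCNIP3 the second without C or F. CHRNB2 had a Fisher's exact p of 0.00476 to 0.0476 with each animal left out. The count of regions was 0, 1 with stricter peaks (KCNA6) and 0 to 1 when each animal was left out (1 without C or without F). The share of all genes or regions called under each alternative was not kept. These counts therefore cannot be set against the background of their setting. The log2 ratio of channel genes per animal was 1.18, with 1.02 to 1.44 when each animal was left out, 1.96 in males, 0.80 in females, 1.90 in single-letter animals, 0.48 in numbered animals and -0.37 in lists of equal length. The share of channel genes was 0.217 percentage points higher after sevoflurane, with 0.0898 to 0.301 when each animal was left out (lowest without D), 0.829 in males, -0.122 in females, 0.616 in single-letter animals, -0.151 in numbered animals and -0.104 in lists of equal length. With the replicate block over the 3 same-numbered pairs, the values were 0.48 on the log2 scale and -0.151 percentage points; 3 of 6 animals correlated best with their own number, and 3 pairs allow no call per gene. Fisher's exact test cannot go below 0.333 in males or 0.1 in either naming style, so no counts of genes were made there. The causes were not tested. Without read counts, a peak missed for want of depth cannot be told apart from an absent one.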

Other observations

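A pair of peaks named a channel gene in the annotation column alone. HCN2, a pacemaker channel gene, was named for a peak in C1 on chromosome 19 from 336580 to 336670, which was called in BSG, with a fold enrichment of 3.64. CHRNE, the epsilon subunit of the muscle nicotinic receptor, was named for a peak in D on chromosome 16 from 4835126 to 4835246, which was called in a gene without a symbol, with a fold enrichment of 11. Counting genes by that column left 1 channel gene, CHRNB2, passing toward sevoflurane (Fisher's exact p under 0.05, before adjustment). No share over all genes was kept for this way of counting, so that number has no background to be set against.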
